A study of Mus musculus with 15 samples.

Results

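The small leucine-rich proteoglycans (SLRPs) are secreted matrix proteins built on a core of leucine-rich repeats. The 10 SLRP genes of interest, *Dcn*, *Bgn*, *Fmod*, *Lum*, *Prelp*, *Ogn*, *Omd*, *Epyc*, *Chad* and *Chadl*, were taken by name from the 24134 genes in each of 2 tables of RNA sequencing counts, and all 10 were present. The cells were primary articular chondrocytes of ICR mice aged 4 to 5 days, taken from tibial plateaus and femoral condyles and used at passage 0. In the drug table, cultures received DMSO, XAV939 or IWR-1, both compounds at 10 μM, for 108 h. XAV939 and IWR-1 are small molecules that inhibit the tankyrases, enzymes that attach chains of ADP-ribose to target proteins. In the siRNA table, cells were transfected with control siRNA (siCtrl) or with siRNAs against the tankyrase genes *Tnks* and *Tnks2* together (siTnks/2). Each of the 5 groups had 3 libraries described as biological replicates, and whether a culture came from 1 animal or from several pooled animals is not given in the sources used here. The comparisons ask which SLRP genes rose and which fell when tankyrase was depleted or inhibited.

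SLRPs coat collagen fibrils and set how fibrils form, space out and take up other matrix proteins. Decorin and biglycan, of class I, carry chondroitin or dermatan sulfate chains and also bind growth factors such as TGF-β. Fibromodulin, lumican, PRELP and osteomodulin, of class II, bind fibrils as well, and fibromodulin, lumican and osteomodulin carry keratan sulfate. Epiphycan and osteoglycin form class III, and epiphycan is typical of cartilage. Chondroadherin binds type II collagen and an integrin of the chondrocyte, and chondroadherin-like, its closest relative, also binds collagen. In articular cartilage these proteins help keep the collagen network intact.

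Library totals lay between 26857070 and 36615194 counts over the 15 libraries, and levels are given as CPM, the counts relative to the scaled library size. *Tnks* was at 69.0, 58.4 and 70.1 CPM in siCtrl and at 19.5, 12.7 and 24.0 CPM in siTnks/2, and *Tnks2* was at 118, 119.6 and 115 CPM against 58.2, 44.9 and 61.2 CPM, so that both targeted genes were lower in every siTnks/2 library. All 10 chondrocyte markers examined, among them *Col2a1*, *Acan* and *Sox9*, were detected. They took 9.34% ± 1.49 of the scaled counts in siCtrl, 15.1% ± 4.08 in siTnks/2, 2.91% ± 0.522 in DMSO, 4.38% ± 0.992 in XAV939 and 9.73% ± 1.25 in IWR-1 (SD, n = 3 each). The 8 fibroblast or synovial markers summed to 3231–5420 CPM in siCtrl, 1493–4327 CPM in siTnks/2, 8735–11027 CPM in DMSO, 3933–5220 CPM in XAV939 and 2983–4817 CPM in IWR-1. Of these 8, *Dpt*, *Pdgfra*, *Col3a1* and *Col1a1* fell with either compound and *Pi16* rose with IWR-1. In bulk RNA, fewer cells of a type and less RNA per cell cannot be told apart. Replicate 2 had the highest chondrocyte sum of its group in all 5 groups. Replicate 2 also had the lowest fibroblast or synovial sum in siCtrl, siTnks/2 and DMSO, whereas in XAV939 and IWR-1 replicate 1 had the lowest. The 10 leukocyte markers summed to 15.2–17.5 CPM in siCtrl, 36.6–59.0 CPM in siTnks/2 and at most 17.96 CPM in the drug groups, the 3 tendon markers to 31.7 CPM, the 6 endothelial markers to 8.56 CPM, the 5 skeletal muscle markers to 7.54 CPM and the 8 osteoblast markers, of which *Sost* was at 0 in every library, to 300.2 CPM.

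The order of the SLRP genes by level, per length of transcript, differed between the cultures. In siCtrl *Bgn* led with 902 ± 64.4 CPM per kb, followed by *Fmod* at 479 ± 61.1 and *Dcn* at 316 ± 47.0 CPM per kb (SD, n = 3). In DMSO *Dcn* led with 1886 ± 340.1 CPM per kb, followed by *Bgn* at 1176 ± 57.2 and *Lum* at 871 ± 163 CPM per kb. *Omd* was the lowest of the 10 in all 5 groups, from 1.27 ± 0.0284 CPM per kb in XAV939 to 12.6 ± 0.447 CPM per kb in siCtrl. The tables were normalized separately and come from different cultures, so the differences between siCtrl and DMSO were not tested. Neighbours in the order whose libraries overlapped were *Dcn* with *Epyc* and *Ogn* with *Lum* in siCtrl. In siTnks/2 the libraries of *Fmod*, *Epyc* and *Dcn* overlapped in turn, as did those of *Lum*, *Chad*, *Chadl*, *Ogn* and *Prelp*. In DMSO no neighbours overlapped.

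In make-up, the SLRP transcripts of the IWR-1 libraries held less *Dcn* and *Lum* and more *Bgn* and *Fmod* than those of DMSO. As a share of the summed CPM per kb of the 10 genes, *Dcn* took 37.7% ± 1.61 in DMSO, 32.7% ± 4.14 in XAV939 and 21.5% ± 0.728 in IWR-1, and *Lum* took 17.4% ± 0.882, 16.5% ± 0.270 and 8.51% ± 0.380 (SD, n = 3). *Bgn* took 23.8% ± 2.44, 25.9% ± 2.12 and 32.9% ± 1.39, and *Fmod* 11.6% ± 0.872, 12.96% ± 2.12 and 20.5% ± 0.387. With IWR-1, *Bgn* thus replaced *Dcn* as the most abundant of the 10. The summed level of the 10 genes was 9466–12078 CPM in DMSO, 9035–11847 CPM in XAV939 and 7913–9161 CPM in IWR-1. In the siRNA table it was 5545–6077 CPM in siCtrl and 6615–7585 CPM in siTnks/2, where *Epyc* went from 9.90% ± 2.07 to 15.6% ± 3.84 of the make-up, *Ogn* from 6.97% ± 1.21 to 2.30% ± 1.23 and *Chad* from 0.880% ± 0.261 to 3.54% ± 1.22.

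**Figure D1:**
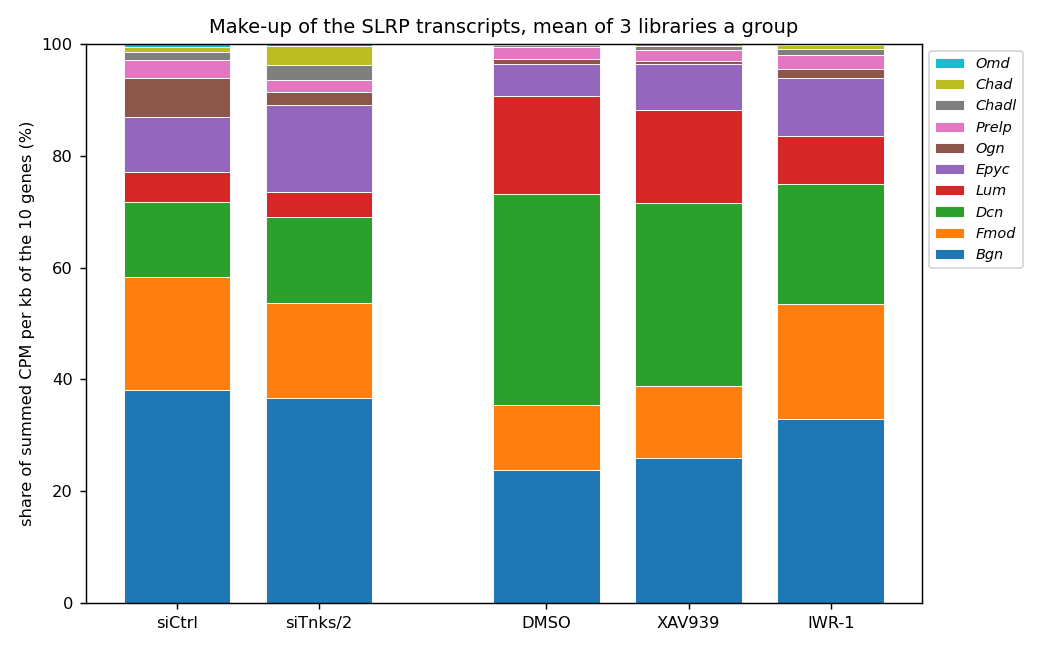
Make-up of the SLRP transcripts: each bar stacks the share (percent, vertical axis) of each of the 10 genes in their summed CPM per kb, as the mean of 3 libraries a group. *Dcn* shrinks from 37.7% in DMSO to 21.5% in IWR-1, and in the siRNA groups *Epyc* widens from 9.90% to 15.6%.

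Of the 10 genes, in the fit without a replicate block, *Chad*, *Chadl* and *Epyc* rose on knockdown and none fell past the limit. In that fit XAV939 raised *Chad* and *Chadl* and lowered *Omd* and *Ogn*, and IWR-1 raised *Chad* and *Chadl* and lowered *Lum*, *Dcn* and *Prelp*. With replicate number as a block, *Dcn* also rose and *Ogn* and *Omd* fell on knockdown. The chondrocyte marker sum was higher in each treated group than in its control and the leukocyte sum higher in siTnks/2, as given above, and their part in these results was not tested. *Chad* and *Chadl* were the members that passed the test in the same direction in all 3 comparisons. *Prelp* had like log2 fold changes with XAV939 (-0.36) and IWR-1 (-0.37), which lay on either side of the limit. Each test was the quasi-likelihood test of edgeR, a gene passed at an adjusted p under 0.05 (Benjamini-Hochberg, over all genes tested), and the adjusted p values given here are from that fit unless another is named. On knockdown 3 members rose against 10.4% of the 13672 genes tested, and 0 fell against 7.61% of them, with 2 members lower at an unadjusted p under 0.05 and 2 lower by DESeq2. With XAV939, 2 rose against 7.57% and 2 fell against 9.85% of 13873 genes. With IWR-1, 2 rose against 16.2% and 3 fell against 20.2% of the same genes, and both drug comparisons share the DMSO libraries. The median log2 fold change of the 10 members was 0.17 on knockdown, -0.13 with XAV939 and 0.32 with IWR-1, beside medians of 0.00, 0.02 and 0.01 over all genes tested. Replicate numbers were taken to pair the libraries, and with the number as a block 4 members rose and 2 fell on knockdown, beside 18.1% and 16.5% of genes. With the block 2 rose and 3 fell with XAV939, beside 16.0% and 17.4%, and 5 rose and 3 fell with IWR-1, beside 22.2% and 25.3%. Under the study's limits, a fold change over 3 and an adjusted p under 1e-05, edgeR called none of the 10 members in any comparison, beside 0.00% of genes on knockdown, 0.00721% with XAV939 and 1.05% with IWR-1. With so few genes called, edgeR could hardly have called a member on knockdown or with XAV939. By DESeq2, which the study used, *Chad* passed these limits on knockdown (log2 fold change 2.39, adjusted p = 3.95e-06) and with IWR-1 (2.09, adjusted p = 7.3e-13). The 3 risers on knockdown became 1 without siCtrl replicate 1 or without siCtrl replicate 3, and the 0 fallers became 1 without siTnks/2 replicate 2 or 3. The 2 risers with XAV939 became 1 without DMSO replicate 1 or XAV939 replicate 2, and the 3 fallers with IWR-1 became 2 without DMSO or IWR-1 replicate 1 or 2. In level, 4 members lay above control with no overlap on knockdown and 2 below, beside 21.6% and 22.2% of genes. With XAV939 these counts were 2 and 3, beside 16.4% and 16.8%, and with IWR-1 5 and 3, beside 24.7% and 26.4%.

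**Figure D2:**
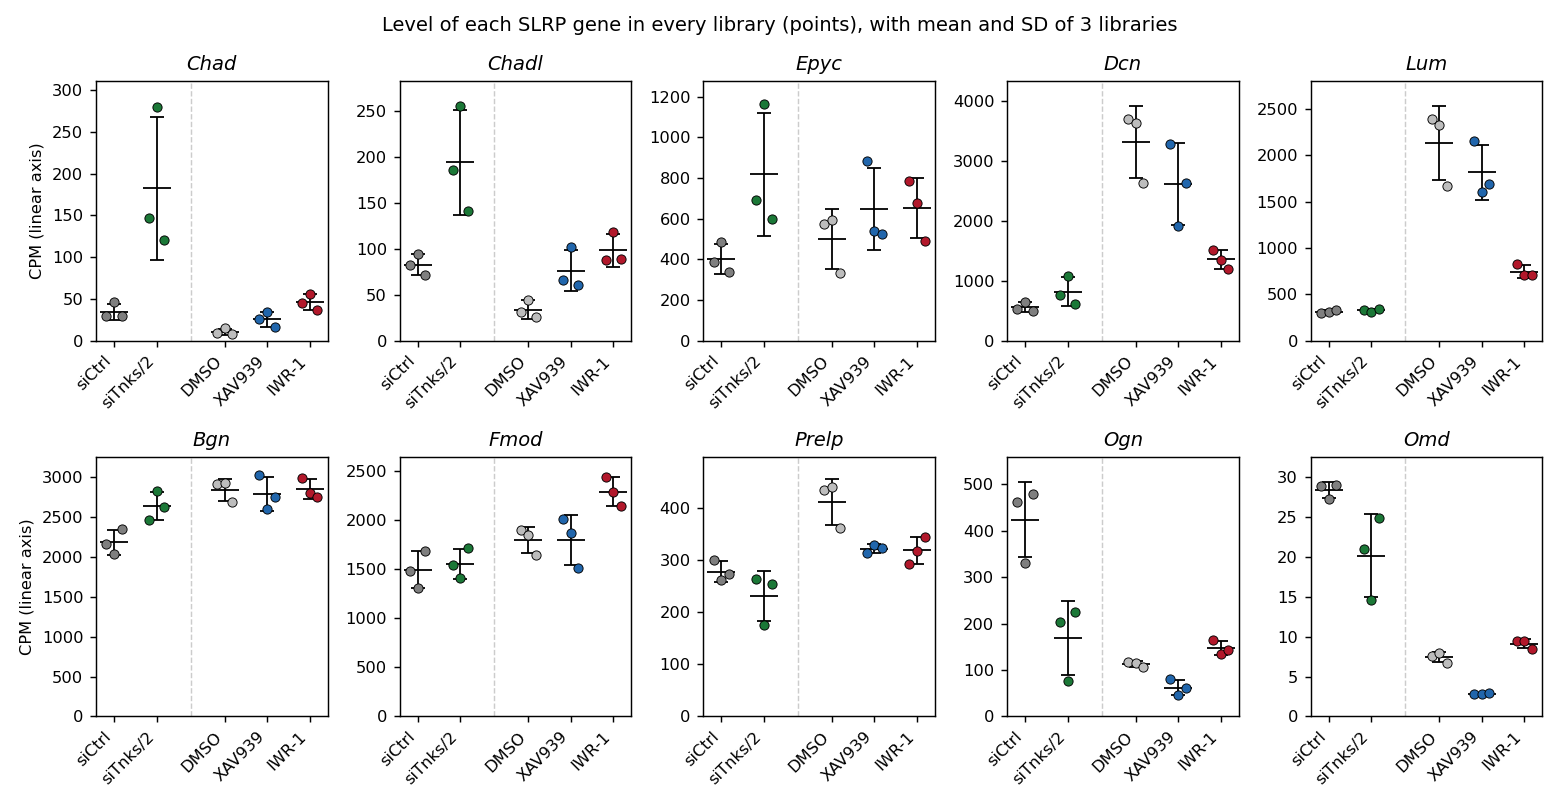
Level of each of the 10 SLRP genes in every library (points), in CPM on a linear axis from 0, with the mean and SD of 3 libraries per group as bars, and a dashed line between the siRNA and the drug table. The siTnks/2 libraries of *Chad* lie at 120.2–279.6 CPM, all above the siCtrl libraries at 29.0–45.9 CPM, and the IWR-1 libraries of *Lum* lie at 705–829 CPM, all below DMSO.

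**Figure D3:**
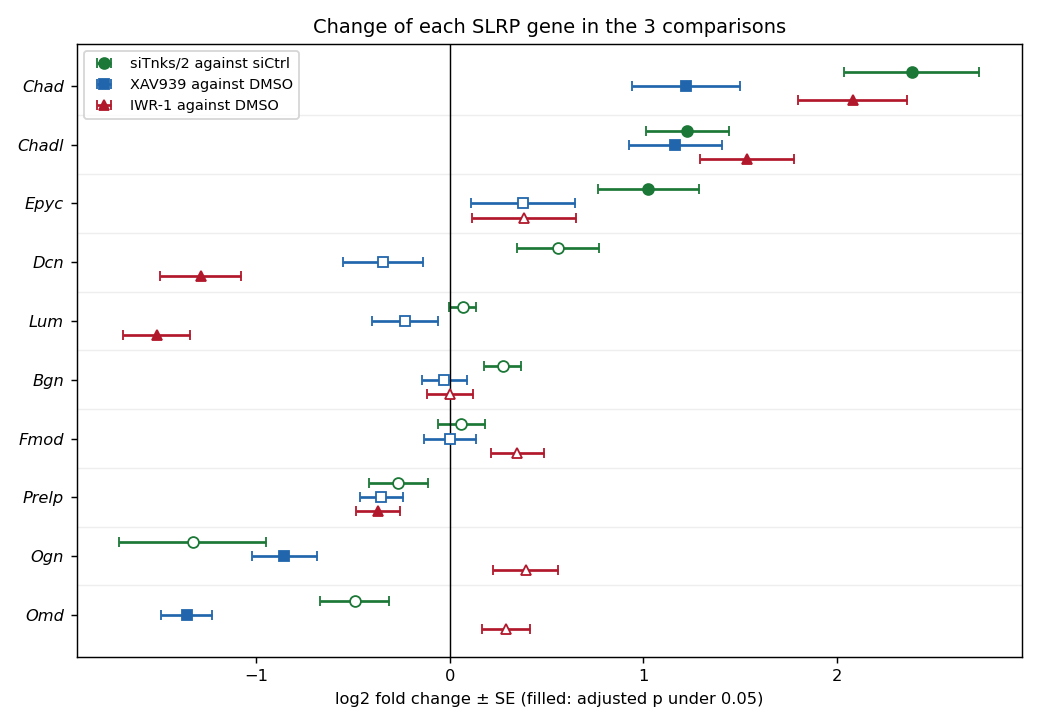
Change of each SLRP gene in the 3 comparisons, as log2 fold change with its SE (horizontal axis), filled where the adjusted p was under 0.05. *Chad* and *Chadl* lie to the right in all 3, whereas *Ogn* and *Omd* lie to the left with XAV939 and on knockdown but to the right with IWR-1. In the fit shown, without a replicate block, *Ogn* and *Omd* passed the limit with XAV939 only.

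*Chad* encodes chondroadherin, which anchors chondrocytes to type II collagen. *Chad* was at 29.6, 45.9 and 29.0 CPM in siCtrl and at 147, 279.6 and 120.2 CPM in siTnks/2. In the drug table it was at 9.48, 14.9 and 8.23 CPM in DMSO, at 25.5, 34.2 and 16.8 CPM in XAV939 and at 45.3, 56.3 and 37.3 CPM in IWR-1. Every treated library lay above every control library of its table, and all 3 replicate numbers rose in each comparison. Its log2 fold change was 2.39 ± 0.35 (SE) on knockdown (adjusted p = 0.00864), 1.22 ± 0.28 with XAV939 (adjusted p = 0.0134) and 2.08 ± 0.28 with IWR-1 (adjusted p = 0.00023). The rise with XAV939 missed the limit without DMSO replicate 1 (adjusted p = 0.0610) or without XAV939 replicate 2 (adjusted p = 0.0553), in a range of 1.39e-05 to 0.0610 over its 16 alternatives.

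*Chadl* encodes chondroadherin-like, a cartilage protein that binds collagen. *Chadl* was at 82.2, 94.8 and 71.8 CPM in siCtrl and at 186, 255 and 142 CPM in siTnks/2. It was at 31.4, 44.8 and 25.4 CPM in DMSO, at 66.5, 102 and 60.2 CPM in XAV939 and at 87.8, 119.0 and 88.6 CPM in IWR-1. As for *Chad*, treated and control libraries did not overlap in any of the 3 comparisons. *Chadl* had a log2 fold change of 1.23 ± 0.21 on knockdown (adjusted p = 0.0135), 1.17 ± 0.24 with XAV939 (adjusted p = 0.0079) and 1.54 ± 0.24 with IWR-1 (adjusted p = 0.000585). On knockdown it missed the limit without siCtrl replicate 1 (adjusted p = 0.0603) or siCtrl replicate 3 (adjusted p = 0.0593), in a range of 4.06e-07 to 0.0603 over 12 alternatives. Of 5257 exonic bases of *Chadl*, 1023 (19.5%) also belong to *L3mbtl2* on the other strand, and how the counting treated strand is not given in the sources used here. *L3mbtl2* itself was at 20.8–26.1 CPM in the control and 19.9–23.9 CPM in the treated libraries.

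*Epyc* encodes epiphycan, a class III member of growth plate and articular cartilage. *Epyc* was at 385, 483 and 338 CPM in siCtrl and at 693, 1163 and 601 CPM in siTnks/2. It was at 573, 595 and 331 CPM in DMSO, at 882, 539 and 524 CPM in XAV939 and at 787, 676 and 493 CPM in IWR-1. The siRNA groups did not overlap, whereas both drug groups overlapped DMSO. For *Epyc* the log2 fold change was 1.03 ± 0.26 on knockdown (adjusted p = 0.0389), 0.38 ± 0.27 with XAV939 (adjusted p = 0.361) and 0.38 ± 0.27 with IWR-1 (adjusted p = 0.300). The knockdown call was lost without any 1 of siCtrl replicate 1, 2 or 3 or siTnks/2 replicate 1 (adjusted p from 0.0730 to 0.129). With the replicate block, *Epyc* rose with IWR-1 as well (log2 fold change 0.40, adjusted p = 0.0337, in a range of 0.0337 to 0.667 over 16 alternatives). Exonic bases shared with *Gm10754* on the other strand make up 40.6% of those of *Epyc*, and *Gm10754* was at 0 to 0.150 CPM in the 15 libraries.

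The promoters of *Chad* and *Epyc* are shown because both genes rose on knockdown. RefSeq windows (GRCm38.p6) of the 250 bases before a transcript start were available for 8 of the 10 members, and not for *Dcn* and *Lum*. Of the *Chadl* window, 86 bases lie inside the annotated span of the gene, and the *Prelp* window lies inside its span with all 250 bases, so these starts are not the outermost ones. Each window was searched on both strands for 6 motifs. ACAATG is a core recognized by SOX proteins. ACAAAG is a core recognized by many HMG box proteins. ATCAAAG is recognized by TCF and LEF proteins. TGANTCA is the AP-1 site. TATAAA stands for the TATA box. CACCTG is an E-box. No motif contains another of the 6. Sequences run 5′ to 3′ on the gene's strand, with matches in capitals.
*Chad*, chr11:94564797-94565046, plus strand: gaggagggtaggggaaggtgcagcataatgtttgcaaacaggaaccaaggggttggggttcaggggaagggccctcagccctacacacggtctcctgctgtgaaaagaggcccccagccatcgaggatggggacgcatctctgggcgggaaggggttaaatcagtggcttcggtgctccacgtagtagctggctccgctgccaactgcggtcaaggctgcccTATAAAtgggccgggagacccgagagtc
*Epyc*, chr10:97643818-97644067, plus strand: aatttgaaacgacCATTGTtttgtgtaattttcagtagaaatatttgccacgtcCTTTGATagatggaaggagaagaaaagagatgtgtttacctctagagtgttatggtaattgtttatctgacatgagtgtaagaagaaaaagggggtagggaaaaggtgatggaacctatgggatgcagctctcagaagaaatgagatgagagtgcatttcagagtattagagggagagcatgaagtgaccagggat
The *Chad* window held a TATAAA 28 to 23 bases before the start, as did 12.4% of all 32851 windows anywhere in their length. The *Chadl* window, chr15:81697288-81697537 on the minus strand, held ACAATG 90 to 85 bases before the start, present in 10.7% of all windows. The *Epyc* window held CATTGT, which is ACAATG on the other strand, and CTTTGAT, which is ATCAAAG on the other strand and was present in 3.21% of all windows. A second RefSeq start of *Epyc*, within the gene, held ACAATG 2 times, ACAAAG 1 time and ATCAAAG 1 time in its window. GC content was 60.4% for *Chad*, 65.2% for *Chadl* and 39.2% for the *Epyc* window shown, beside a median of 52.4% over all windows. A match to letters is a description of these windows and no evidence of binding.

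*Dcn* encodes decorin, which binds collagen fibrils and TGF-β. *Dcn* was at 526, 648 and 490.4 CPM in siCtrl and at 754, 1080.0 and 616 CPM in siTnks/2. It was at 3694, 3628 and 2627 CPM in DMSO, at 3285, 1915 and 2627 CPM in XAV939 and at 1518, 1355 and 1202 CPM in IWR-1. The IWR-1 libraries lay below every DMSO library, whereas XAV939 overlapped DMSO and siTnks/2 overlapped siCtrl. The log2 fold change of *Dcn* was -1.29 ± 0.21 with IWR-1 (adjusted p = 0.000698), -0.35 ± 0.21 with XAV939 (adjusted p = 0.273) and 0.56 ± 0.21 on knockdown (adjusted p = 0.110). On knockdown all 3 replicate numbers went up, and with the replicate block the rise passed the limit (log2 fold change 0.53 ± 0.09, adjusted p = 0.0101). It passed also by DESeq2 (0.56, adjusted p = 0.0364) and without siTnks/2 replicate 3 (0.73, adjusted p = 0.0495), in a range of 0.0101 to 0.274 over 12 alternatives. The fall with IWR-1 went along with the fall of the fibroblast or synovial marker sum from 8735–11027 to 2983–4817 CPM, and with XAV939 the sum was 3933–5220 CPM. The part of these markers in the result was not tested.

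*Bgn* encodes biglycan, the class I relative of decorin. *Bgn* was at 2164, 2038 and 2347 CPM in siCtrl and at 2468, 2823 and 2631 CPM in siTnks/2. It was at 2914, 2935 and 2686 CPM in DMSO, at 3024, 2597 and 2753 CPM in XAV939 and at 2992, 2809 and 2748 CPM in IWR-1. The siRNA groups did not overlap, but the log2 fold change of 0.27 ± 0.10 missed the limit (adjusted p = 0.0893). DESeq2 called this rise (adjusted p = 0.0169), in a range of 0.0169 to 0.236 over 12 alternatives. With XAV939 it was -0.03 (95% interval -0.29 to 0.23) and with IWR-1 0.00 (95% interval -0.26 to 0.26). *Bgn* and *Dcn* are of the same class, and with IWR-1 the interval for *Dcn*, -1.75 to -0.83, lay below that for *Bgn*.

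*Lum* encodes lumican, a keratan sulfate proteoglycan that limits fibril diameter. *Lum* was at 298, 308 and 332 CPM in siCtrl and at 336, 307 and 339 CPM in siTnks/2. It was at 2397, 2327 and 1674 CPM in DMSO, at 2156, 1601 and 1693 CPM in XAV939 and at 829, 705 and 705 CPM in IWR-1. Every IWR-1 library was far below the DMSO and XAV939 libraries, and the other 2 comparisons overlapped. For *Lum* the log2 fold change was -1.51 ± 0.17 with IWR-1 (adjusted p = 7.6e-05), -0.23 ± 0.17 with XAV939 (adjusted p = 0.376) and 0.07 ± 0.07 on knockdown (adjusted p = 0.548). The fall with IWR-1 held in all 16 alternatives, at -1.67 to -1.42. As for *Dcn*, the fibroblast or synovial marker sum was also low in these libraries, and its part was not tested.

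*Fmod* encodes fibromodulin, which shares a collagen site with lumican and guides fibril growth. *Fmod* was at 1484, 1308 and 1689 CPM in siCtrl and at 1544, 1410.3 and 1714 CPM in siTnks/2. It was at 1901, 1845 and 1642 CPM in DMSO, at 2012, 1869 and 1512 CPM in XAV939 and at 2438, 2285 and 2144 CPM in IWR-1. The IWR-1 libraries lay above all DMSO libraries, and the other groups overlapped their controls. The log2 fold change was 0.35 ± 0.14 with IWR-1 (adjusted p = 0.0678), 0.00 with XAV939 (95% interval -0.30 to 0.30) and 0.06 on knockdown (95% interval -0.23 to 0.35). With IWR-1 *Fmod* passed the limit with the replicate block (0.35 ± 0.10, adjusted p = 0.0102) and without XAV939 replicate 3 (0.34, adjusted p = 0.0484), in a range of 0.0102 to 0.215 over 16 alternatives. DESeq2 (0.35, adjusted p = 0.0230) and the fit of IWR-1 and DMSO alone (0.35, adjusted p = 0.0414) called this rise too.

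*Prelp* encodes PRELP, which ties heparan sulfate of the pericellular matrix to collagen. *Prelp* was at 299, 262 and 272 CPM in siCtrl and at 263, 176 and 253 CPM in siTnks/2. It was at 434, 440.4 and 361 CPM in DMSO, at 313, 329 and 323 CPM in XAV939 and at 292, 318 and 345 CPM in IWR-1. Both drug groups lay below all DMSO libraries, and the siRNA groups overlapped. The log2 fold change was -0.36 ± 0.11 with XAV939 (adjusted p = 0.0508), -0.37 ± 0.11 with IWR-1 (adjusted p = 0.0234) and -0.27 ± 0.15 on knockdown (adjusted p = 0.257). With XAV939 *Prelp* fell past the limit with the replicate block (-0.35, adjusted p = 0.0216) and without DMSO replicate 3 (-0.45, adjusted p = 0.0178), in a range of 0.0115 to 0.165. DESeq2 called this fall (-0.36, adjusted p = 0.0115), as did edgeR with the size factors of DESeq2 (-0.36, adjusted p = 0.0456). With IWR-1 the call was lost without DMSO replicate 1 (adjusted p = 0.0898) or 2 (0.0753) or without IWR-1 replicate 1 (0.0961) or 2 (0.0784), in a range of 0.0044 to 0.0961.

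*Omd* encodes osteomodulin, a keratan sulfate proteoglycan best known from mineralized tissue. *Omd* was at 28.9, 27.2 and 29.0 CPM in siCtrl and at 21.0, 14.6 and 24.9 CPM in siTnks/2. It was at 7.59, 7.95 and 6.76 CPM in DMSO, at 2.83, 2.81 and 2.93 CPM in XAV939 and at 9.45, 9.40 and 8.47 CPM in IWR-1. XAV939 and IWR-1 stood on opposite sides of DMSO with no overlap, and siTnks/2 lay below siCtrl. *Omd* had a log2 fold change of -1.36 ± 0.13 with XAV939 (adjusted p = 0.000126), 0.29 ± 0.12 with IWR-1 (adjusted p = 0.0933) and -0.49 ± 0.18 on knockdown (adjusted p = 0.0968). The 8 osteoblast markers summed to 68.1–98.3 CPM in DMSO, 92.7–112 CPM in XAV939 and 84.4–116 CPM in IWR-1, and their part was not tested. On knockdown *Omd* fell past the limit with the replicate block (-0.52 ± 0.13, adjusted p = 0.0305) and without siTnks/2 replicate 3 (-0.67, adjusted p = 0.0390), in a range of 0.0305 to 0.219 over 12 alternatives. DESeq2 called this fall too (-0.50, adjusted p = 0.0449). The study's cartilage-signature list, made from other arrays of chondrocytes and fibroblasts, holds *Omd* beside *Chad*, *Chadl*, *Epyc* and *Fmod*, and with XAV939 *Chad* and *Chadl* of that list rose while *Omd* fell.

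*Ogn* encodes osteoglycin, a class III member also called mimecan. *Ogn* was at 462, 331 and 479 CPM in siCtrl and at 204, 77.0 and 226 CPM in siTnks/2. It was at 118, 114 and 106 CPM in DMSO, at 79.7, 46.2 and 60.5 CPM in XAV939 and at 164, 135 and 144 CPM in IWR-1. None of these groups overlapped its control, and siTnks/2 replicate 2 was the lowest of the siRNA libraries. The log2 fold change of *Ogn* was -1.33 ± 0.38 on knockdown (adjusted p = 0.0528), -0.85 ± 0.17 with XAV939 (adjusted p = 0.00642) and 0.39 ± 0.17 with IWR-1 (adjusted p = 0.0935). On knockdown *Ogn* fell past the limit with the replicate block (-1.45 ± 0.20, adjusted p = 0.00688) and without siTnks/2 replicate 2 (-0.98 ± 0.16, adjusted p = 0.00788), in a range of 0.00688 to 0.143. It fell past the limit also by DESeq2 (-1.33, adjusted p = 0.0267) and without a filter on low counts (-1.33, adjusted p = 0.0445). With IWR-1 it rose past the limit with the replicate block (0.38 ± 0.12, adjusted p = 0.0201), without XAV939 replicate 1 (0.39, adjusted p = 0.0349) and without XAV939 replicate 2 (0.39, adjusted p = 0.0273), in a range of 0.0149 to 0.273. The fit of IWR-1 and DMSO alone called this rise as well (0.39, adjusted p = 0.0149).

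The promoter windows of *Omd* and *Ogn* are shown because both genes fell with XAV939 and lie side by side.
*Omd*, chr13:49582212-49582461, plus strand: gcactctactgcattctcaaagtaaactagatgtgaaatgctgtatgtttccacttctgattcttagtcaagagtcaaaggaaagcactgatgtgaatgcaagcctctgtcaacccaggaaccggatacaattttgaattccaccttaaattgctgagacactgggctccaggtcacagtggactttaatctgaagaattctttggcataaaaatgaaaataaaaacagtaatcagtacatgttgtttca
*Ogn*, chr13:49607765-49608014, plus strand: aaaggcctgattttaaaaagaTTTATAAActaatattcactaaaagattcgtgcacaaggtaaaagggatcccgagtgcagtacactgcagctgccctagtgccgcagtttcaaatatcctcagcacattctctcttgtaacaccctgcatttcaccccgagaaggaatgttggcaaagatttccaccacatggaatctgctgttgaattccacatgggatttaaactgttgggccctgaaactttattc
None of the 6 motifs was in the *Omd* window, and the *Ogn* window held TATAAA on both strands in overlapping letters 229 to 222 bases before the start. GC content was 38.4% for *Omd* and 42.0% for *Ogn*. The windows of *Bgn*, *Fmod* and *Prelp* held none of the 6 motifs either.

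XAV939 and IWR-1, at the same dose and time, differed in 4 of the 10 SLRP genes, beside 17.6% of the 13873 genes tested in the direct contrast. Relative to XAV939, IWR-1 gave higher *Omd* (log2 difference 1.65 ± 0.13, adjusted p = 4.5e-05) and *Ogn* (1.25 ± 0.17, adjusted p = 0.000886). It gave lower *Lum* (-1.28 ± 0.17, adjusted p = 0.000814) and *Dcn* (-0.94 ± 0.21, adjusted p = 0.0104). In these 4 genes the drug groups did not overlap and all 3 replicate numbers went the same way. Over the 10 members, 4 lay higher with IWR-1 and 2 lower with no overlap, beside 18.2% and 19.4% of genes. *Chad* was higher with IWR-1 by 0.86 ± 0.27, which missed the limit (adjusted p = 0.0518). The difference in *Chad* passed with the replicate block (0.89 ± 0.11, adjusted p = 8.7e-05), without DMSO replicate 2 (adjusted p = 0.0314) or 3 (0.0352) and without XAV939 replicate 2 (0.0290), in a range of 8.7e-05 to 0.188 over 15 alternatives. It passed also by DESeq2 (adjusted p = 0.0111), with the size factors of DESeq2 (0.0498) and without a filter on low counts (0.0318). With the block *Chadl* (0.40 ± 0.09, adjusted p = 0.00781) and *Fmod* (0.36 ± 0.10, adjusted p = 0.0161) also differed, which made 7 members beside 30.7% of genes. DESeq2 called the difference in *Fmod* as well (0.35, adjusted p = 0.0338). For *Epyc* the log2 difference was 0.01 (95% interval -0.58 to 0.60), for *Prelp* -0.02 (-0.26 to 0.23) and for *Bgn* 0.03 (-0.23 to 0.29), so differences up to those bounds remain possible.

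The drug effects were also set against the knockdown effect, each relative to the control of its own table, in 1 model of all 15 libraries. The XAV939 effect differed from the knockdown effect in 1 member, *Omd*, where it was lower by 0.88 ± 0.21 on the log2 scale (log2 difference -0.88, adjusted p = 0.0156), beside 13.5% of 14271 genes. The IWR-1 effect differed in 4 members, beside 24.4% of genes. It was lower for *Dcn* (log2 difference -1.86 ± 0.31, adjusted p = 0.000704) and *Lum* (-1.59 ± 0.20, adjusted p = 7.4e-05), and higher for *Ogn* (1.71 ± 0.41, adjusted p = 0.00755) and *Omd* (0.77 ± 0.21, adjusted p = 0.0147). For *Chadl* the IWR-1 effect minus the knockdown effect was 0.30 (95% interval -0.44 to 1.04) and for *Chad* -0.32 (-1.32 to 0.69). With the replicate block the XAV939 effect was also lower than the knockdown effect for *Chad* (-1.12, adjusted p = 0.000432), *Dcn* (-0.90, adjusted p = 0.00679) and *Epyc* (-0.61, adjusted p = 0.0324), 4 members in all beside 28.2% of genes. With the block the IWR-1 effect was lower for *Epyc* too (-0.60, adjusted p = 0.0282), 5 members beside 36.3% of genes. The difference in *Dcn* between XAV939 and knockdown passed without the block when siTnks/2 replicate 3 (adjusted p = 0.0338), XAV939 replicate 1 (0.0411) or DMSO replicate 3 (0.0433) was left out, in a range of 0.00679 to 0.139, which took the count from 1 to 2. DESeq2 called this difference in *Dcn* too (-0.92, adjusted p = 0.0212). For *Bgn* DESeq2 called a lower effect of XAV939 (log2 difference -0.32, adjusted p = 0.0430) and of IWR-1 (-0.29, adjusted p = 0.0485) than of knockdown. The duration of the knockdown is not given in the sources used here, and method, duration and table cannot be told apart in these contrasts.

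Of the 10 SLRP genes, 7 lie in 3 chromosomal clusters of the family (mm10), and neighbours within a cluster did not always move together. On chromosome 10, *Dcn*, *Lum*, *Kera* and *Epyc* span 202.4 kb from 97479500 to 97681908 with no other coding gene between them. With IWR-1, *Dcn* and *Lum* fell while the log2 fold change of *Epyc* was 0.38. On chromosome 13, *Ecm2*, *Aspn*, *Omd* and *Ogn* span 119.7 kb from 49504810 to 49624501, all inside the span of *Cenpp* on the other strand. *Omd* and *Ogn*, 15.4 kb apart, both fell with XAV939, and *Ecm2* at the other end had a log2 fold change of -0.13 (adjusted p = 0.690). On chromosome 1, *Optc*, *Prelp* and *Fmod* span 151.1 kb from 133897193 to 134048280. With IWR-1 *Prelp* fell while *Fmod*, 107.2 kb away, had a log2 fold change of 0.35. No exonic base of *Omd* or *Ogn* is shared with *Cenpp*, which was at 1.46–5.71 CPM in the 15 libraries. *Chad*, on chromosome 11 from 94565047 to 94569127, lies in the span of *Acsf2* on the other strand and shares no exonic base with it. *Acsf2* rose on knockdown from 14.5–16.3 to 22.3–44.5 CPM (log2 fold change 1.013 ± 0.24, adjusted p = 0.0334). *Chadl* lies on chromosome 15 from 81686166 to 81697373 and *Bgn* on chromosome X from 73483601 to 73495936.

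**Figure D4:**
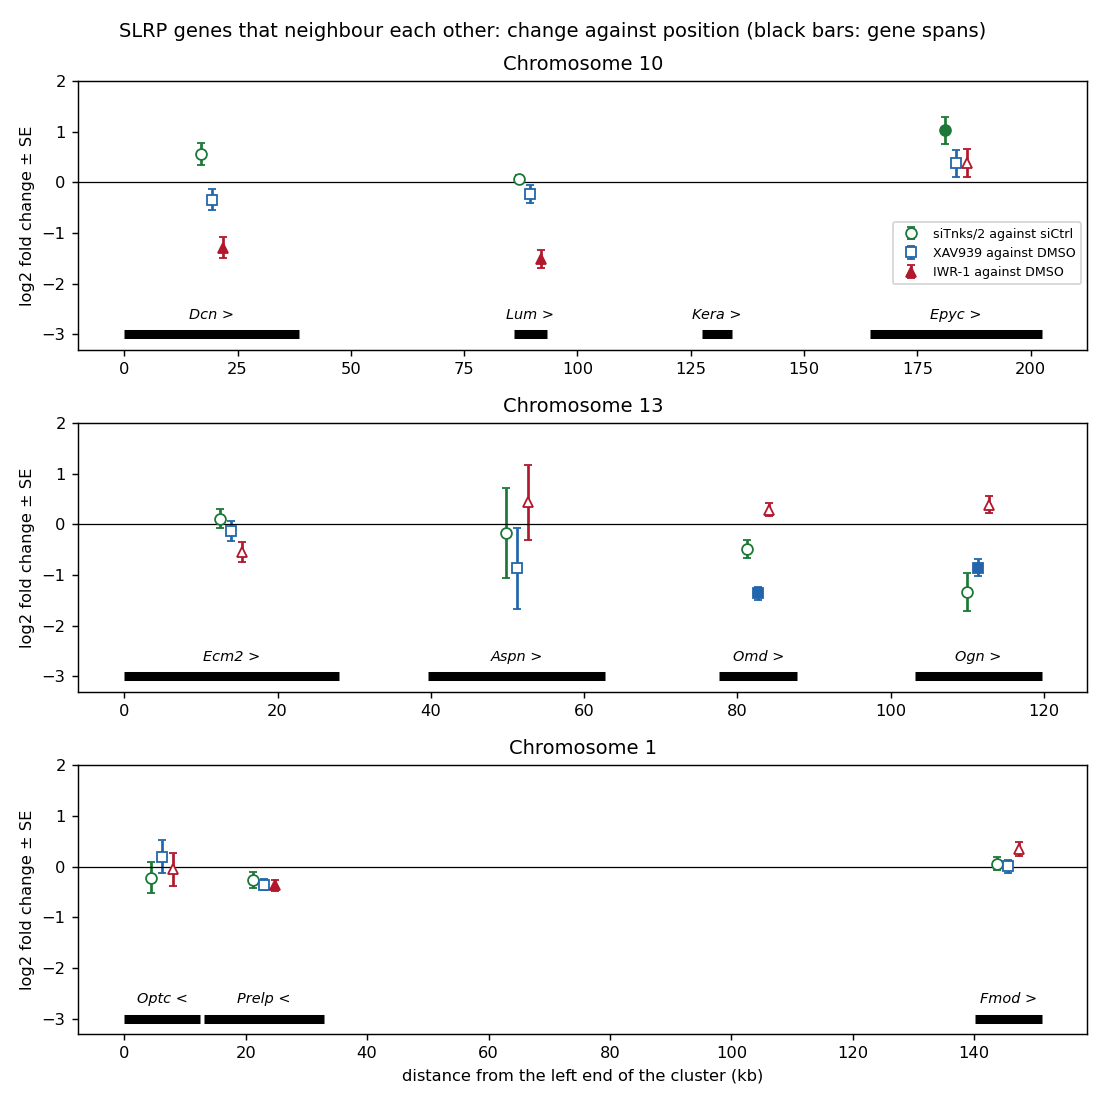
Change of neighbouring SLRP genes against their position: log2 fold change with SE (vertical axis) for the 3 comparisons, at the distance in kb from the left end of each of 3 clusters (horizontal axis), filled where the adjusted p was under 0.05, with gene spans as black bars and arrowheads for strand. *Dcn* and *Lum* have filled IWR-1 points below -1 whereas *Epyc*, at the other end of the same cluster, has an open one at 0.38, and *Kera* was not tested.

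Among 8 other genes of the SLRP family, *Podnl1*, *Tsku* and *Podn* changed. Of these 8, 7 were tested on knockdown and 6 with the drugs. *Podnl1* encodes podocan-like 1. It was at 19.9, 16.7 and 16.4 CPM in siCtrl and at 31.0, 26.3 and 30.2 CPM in siTnks/2, and at 29.0, 24.4 and 20.9 CPM in DMSO against 55.0, 57.6 and 41.1 CPM in XAV939 and 22.2, 17.8 and 18.6 CPM in IWR-1. *Podnl1* rose on knockdown (log2 fold change 0.72 ± 0.11, adjusted p = 0.00862) and with XAV939 (1.05 ± 0.16, adjusted p = 0.00178) but not past the limit with IWR-1 (-0.34 ± 0.16, adjusted p = 0.127), where it fell past it with the replicate block (-0.33, adjusted p = 0.0271). *Tsku* encodes tsukushi, a secreted inhibitor of BMP and Wnt signals. It was at 178, 168 and 174 CPM in DMSO, at 83.3, 97.2 and 120.6 CPM in XAV939 and at 56.4, 60.3 and 71.6 CPM in IWR-1, and it fell with XAV939 (-0.79 ± 0.14, adjusted p = 0.0036) and IWR-1 (-1.46 ± 0.14, adjusted p = 2.7e-05). On knockdown *Tsku* did not pass the limit (-0.09 ± 0.14, adjusted p = 0.677), at 31.2, 40.0 and 31.7 CPM in siCtrl and 30.8, 37.6 and 28.0 CPM in siTnks/2. The drug effect minus the knockdown effect was -0.71 for XAV939 (adjusted p = 0.0383) and -1.38 for IWR-1 (adjusted p = 0.00033). *Podn*, which encodes podocan, fell with IWR-1 from 34.2–42.8 to 17.96–22.2 CPM (-0.96 ± 0.14, adjusted p = 0.000396). Of the other neighbours in the clusters, *Ecm2* was at 2.59–6.14 CPM, *Optc* at 0.243–1.43 CPM, *Kera* at 0 to 0.116 CPM and *Aspn* at 0.189–5.72 CPM over the 15 libraries. *Kera* was not tested, and none of the others passed the limit in the fit without the block. With the replicate block *Ecm2* fell with IWR-1 (-0.56, adjusted p = 0.00565), *Aspn* fell with XAV939 (-0.80, adjusted p = 0.0368) and *Podn* rose on knockdown (0.40, adjusted p = 0.0214). DESeq2 also called the fall of *Ecm2* with IWR-1 (-0.56, adjusted p = 0.0418). *Aspn*, a class I gene, varied from 0.443 to 5.72 CPM among the siCtrl libraries alone.

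Of 25 enzymes and transporters for chondroitin and dermatan sulfate, 24 were tested. On knockdown 6 rose and 3 fell, beside 10.4% and 7.61% of all genes tested. These were led by *Xylt1* (log2 fold change 0.71 ± 0.13), which starts the chain, and *Chsy1* (0.71 ± 0.18), which extends it, and by *Chst7* (-1.11 ± 0.28) and *Chst14* (-0.43 ± 0.07), both sulfotransferases. With XAV939 3 rose and 3 fell, beside 7.57% and 9.85% of all genes. With IWR-1 9 rose and 6 fell, beside 16.2% and 20.2%, with *Slc26a2*, the sulfate transporter, at 2.32 ± 0.39 and *Papss2*, which makes the sulfate donor, at 2.07 ± 0.13. *Chst15*, which adds a second sulfate to chondroitin sulfate, was at -0.97 ± 0.22 and *Ust*, a uronyl sulfotransferase, at -0.75 ± 0.12 with IWR-1. *Papss2* also rose with XAV939 (0.63 ± 0.13) and on knockdown (0.69 ± 0.15). Of 11 enzymes for keratan sulfate, which *Fmod*, *Lum* and *Omd* products carry, 3 of 10 tested rose and 1 fell on knockdown, beside 10.4% and 7.61% of all genes. With XAV939 edgeR called none of the 9 tested, with or without the block, beside 7.57% and 9.85% of all genes without it. Of these 9, 1 had an unadjusted p under 0.05 and DESeq2 called 0. With IWR-1 1 rose and 5 fell, beside 16.2% and 20.2% of all genes. The fallers with IWR-1 were led by the sulfotransferases *Chst1* (-1.40 ± 0.26) and *Chst2* (-0.74 ± 0.10), and *B3gnt7*, which extends the chain, rose (1.65 ± 0.42). *Chst1* fell on knockdown as well (-1.68 ± 0.17). Median log2 fold changes of the chondroitin and dermatan sulfate list were 0.12, -0.04 and 0.14 in the order knockdown, XAV939 and IWR-1, and those of the keratan sulfate list 0.14, -0.04 and -0.36. With the replicate block 11 of the first list rose and 4 fell on knockdown, beside 18.1% and 16.5% of all genes. With the block and XAV939, 5 rose and 6 fell, beside 16.0% and 17.4%.

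Of 10 genes for proteases that cleave SLRPs or their partners, 4 rose and 1 fell on knockdown, beside 10.4% and 7.61% of all genes. With XAV939 1 rose and 2 fell, beside 7.57% and 9.85%, and with IWR-1 9 fell, beside 20.2%. Their median log2 fold changes were 0.37, -0.41 and -1.47 in the order knockdown, XAV939 and IWR-1. *Mmp13*, the collagenase that also cuts fibromodulin, had a log2 fold change of 0.98 ± 0.10 on knockdown and -1.96 ± 0.18 with IWR-1. *Mmp9*, a gelatinase, was at 2.70 ± 0.61 on knockdown, 0.86 ± 0.16 with XAV939 and -2.16 ± 0.18 with IWR-1. With IWR-1 *Mmp3*, which cleaves decorin and biglycan, was at -3.13 ± 0.21 and *Adamts5*, an aggrecanase, at -2.68 ± 0.23. The difference between the IWR-1 and the knockdown effect was -2.95 ± 0.22 for *Mmp13* (adjusted p = 1.2e-06). This difference passed the limit, on the lower side, in 7 of the 10, beside 24.4% of all genes that differed in either direction. The block gave 6 that rose and 3 that fell on knockdown, beside 18.1% and 16.5% of all genes, and 6 that fell with XAV939, beside 17.4%.

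Of 14 genes for collagens and fibronectin, the fibril partners of SLRPs, 2 rose on knockdown, beside 10.4% of all genes, *Col14a1* (1.42 ± 0.22) and *Col11a2* (0.68 ± 0.16). None fell by edgeR in that fit, beside 7.61% of all genes, 1 was lower at an unadjusted p under 0.05 and DESeq2 called 1 lower. The block gave 4 that rose and 4 that fell on knockdown, beside 18.1% and 16.5% of all genes. With XAV939 the block gave 3 that rose and 6 that fell, beside 16.0% and 17.4%. The median log2 fold changes were -0.11 on knockdown, -0.31 with XAV939 and -0.04 with IWR-1. With XAV939 1 rose, *Col11a2* (0.74 ± 0.18), and 5 fell, beside 7.57% and 9.85% of all genes. The fallers were led by *Col12a1* (-1.41 ± 0.29) and *Col3a1* (-1.17 ± 0.22). With IWR-1 3 rose and 4 fell, beside 16.2% and 20.2% of all genes, led by the cartilage collagen genes *Col11a2* (2.28 ± 0.19) and *Col11a1* (1.72 ± 0.18) and by *Col3a1* (-1.54 ± 0.23) and *Col1a1* (-1.39 ± 0.20) of fibrous tissue. Of 13 receptors and growth factors bound by SLRPs, 1 rose and 2 fell on knockdown, beside 10.4% and 7.61% of all genes. With XAV939 7 fell, beside 9.85% of all genes, and with IWR-1 6 fell, beside 20.2%. The medians were -0.07 on knockdown, -0.70 with XAV939 and -0.20 with IWR-1. The block gave 3 that rose and 6 that fell on knockdown, beside 18.1% and 16.5%. The growth factor gene *Bmp4* led the fall with both drugs (-3.27 ± 0.19 with XAV939, -3.78 ± 0.19 with IWR-1), and *Tgfb1* rose on knockdown (0.73 ± 0.12) and fell with IWR-1 (-0.64 ± 0.08).

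As a description, the gene whose log2 CPM over the 15 libraries, centred within each table, was most like each member but *Prelp* was found among 12398 genes. For *Chad* it was *Mia*, a secreted chondrocyte protein gene (Pearson r = 0.98), for *Lum* *Cx3cl1* (r = 0.97), for *Chadl* *Ggt1* (r = 0.97) and for *Dcn* *B4gat1* (r = 0.97). For *Ogn* it was *Ctps* (r = 0.96), for *Epyc* *Slc35b2* (r = 0.96) and for *Omd* *Pik3cb* (r = 0.95). For *Bgn* it was *Dnaja4* (r = 0.93) and for *Fmod* *Cmtr1* (r = 0.91). The points share libraries, depth and treatment groups, and no test was made of them.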

How the data were processed

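The authors trimmed reads of 15 stranded mRNA libraries with Trimmomatic 0.32, mapped them to mm10 with TopHat2 2.0.13 and counted them per gene with HTSeq 0.6.1p1. The deposited values are raw counts per Entrez gene, not normalized. Of 24134 identifiers, 24051 matched a symbol, and no column was left unused. Replicates differed well beyond counting noise (chi-square per degree of freedom 8.05 to 111.4), and all were kept. With such totals the replicates, not the counting, limit the precision.

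Genes were tested with edgeR 4.0.16 (R 4.3.3), using filterByExpr, TMM scaling and quasi-likelihood F tests with a prior count of 2, fitted per table on all genes, with tests of differing effects in 1 model of all libraries. SE came from the log2 fold change and its F. DESeq2 1.42.0, other scalings and filters, a replicate block and leaving out each library were alternatives. In simulated data, edgeR called 71% of 2-fold changes in the right direction on knockdown, 78% with XAV939 and 77% with IWR-1. For 3-fold changes these shares were 84%, 93% and 93%. For the IWR-1 effect against the knockdown effect, 51% of 2-fold and 76% of 3-fold differences were called. Between 3.93% and 6.63% of the calls were false. A real 2-fold change could thus miss the limit. Same-numbered libraries deviated together from their group means in every pair (r = 0.143 to 0.553 in 9 drug pairs, 0.424 to 0.519 in 3 siRNA pairs). Differently numbered libraries of different groups gave r = -0.489 to 0.318 in 18 drug pairs and -0.409 to 0.0972 in 6 siRNA pairs. The ranges thus overlapped in the drug table. On these values the numbers given in the labels were taken to pair the samples, which the labels do not state. Levels per length used the longest RefSeq-matched coding transcript of GENCODE on mm10. The members, lists and tests were chosen with earlier results of these data known. Named are all 10 members and related genes that passed the limit or neighbour a member. From each list other than the cell type markers, at most 2 genes per direction and comparison with the largest change are named. For some of these, values in another comparison are given as well. The nearest profile of *Prelp* is not reported here.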

Additional observations from a re-analysis of the deposited data

Results flagged for a closer look

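The effect of a drug differed from the effect of knockdown in 5 cases, by the test of the difference of effects in edgeR without the replicate block. With the block *Chad*, *Dcn* and *Epyc* also differed for XAV939, and *Epyc* also differed for IWR-1. For *Omd* the XAV939 effect minus the knockdown effect was -0.88 on the log2 scale (adjusted p = 0.0156, in a range of 0.000834 to 0.0403 over 21 alternatives). The IWR-1 effect minus the knockdown effect was -1.86 for *Dcn*, -1.59 for *Lum*, 1.71 for *Ogn* and 0.77 for *Omd* (adjusted p = 0.000704, 7.4e-05, 0.00755 and 0.0147). Each was past the limit in all 21 alternatives run. Method, duration and table cannot be told apart in these differences.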

How the results depend on the processing

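With the replicate block, 4 members rose and 2 fell on knockdown, 2 rose and 3 fell with XAV939, 5 rose and 3 fell with IWR-1, 7 differed between the drugs, and the drug effects differed from knockdown in 4 (XAV939) and 5 (IWR-1). For the 10 members, the block changed no call beside those named in the report. By DESeq2, 5 rose and 2 fell on knockdown, 2 rose and 3 fell with XAV939, 3 rose and 3 fell with IWR-1, 6 differed between the drugs, and the drug effects differed from knockdown in 3 (XAV939) and 5 (IWR-1). Without a filter on low counts, 1 fell on knockdown. Fitting IWR-1 and DMSO alone, 4 rose. Under the limits of the study, fold change over 3 and adjusted p under 1e-05, edgeR called 0 in each direction of the 3 comparisons, and DESeq2 called 1 riser on knockdown and 1 with IWR-1, *Chad* in both. The cause of these shifts was not tested. Leaving out 1 library gave 1 to 4 risers and 0 to 1 fallers on knockdown, 1 to 2 and 2 to 3 with XAV939, 2 to 3 and 2 to 3 with IWR-1, 4 to 5 differing between the drugs, and 1 to 2 (XAV939) and 4 to 4 (IWR-1) differing from knockdown. For the block, and for the study's limits in edgeR, the shares of all genes called are given above. No such share is given for DESeq2 or the other alternatives, so their counts cannot be set against one.

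In all, 39 values changed sign, none of them called. For *Bgn* with XAV939 the log2 fold change was 0.0223 under upper-quartile scaling. For *Bgn* with IWR-1 it was -0.00181 under DESeq2 or its size factors, -0.00995 without a filter and -0.00134 with at least 10 counts in every library. For *Fmod* with XAV939 it was -0.00792 under DESeq2 or its size factors, -0.0214 without a filter, -0.00479 with the block and -0.0129 in the fit of both groups alone. For *Epyc* between the drugs it was -0.0144 under upper-quartile scaling. Leaving out 1 library gave -0.0265 to 0.158 for *Fmod* on knockdown, -0.0880 to 0.0229 for *Bgn* and -0.0861 to 0.0970 for *Fmod* with XAV939, and -0.0441 to 0.0238 for *Bgn* with IWR-1. Between the drugs it gave -0.0194 to 0.0901 for *Bgn*, -0.0742 to 0.0520 for *Prelp* and -0.140 to 0.293 for *Epyc*. For the XAV939 effect less the knockdown effect it gave -0.168 to 0.0419 for *Fmod*, -0.255 to 0.00816 for *Prelp* and -0.348 to 0.184 for *Chadl*, and for IWR-1 -0.561 to 0.128 for *Chad*.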
